A study of Mus musculus with 18 samples.

Results

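S100 proteins are small calcium-binding proteins of the EF-hand family, and 9 of the genes that encode them are described here in thymic epithelial cells of the mouse. S100a4, S100a6, S100a7a, S100a8, S100a9, S100a10, S100a14, S100b and S100g were chosen by name, with earlier results of these data known. They are 9 of the 17 S100 genes among the 23063 genes of the tables, and all 9 passed the filter on low values that left 19451 genes to test (3 or more of the 18 libraries at 0.1 RPKM or above). RNA was sequenced from cortical thymic epithelial cells (cTEC) and from the lo and hi fractions of medullary thymic epithelial cells (mTEClo and mTEChi), sorted by flow cytometry from digested thymi of mice aged 6 to 8 weeks. Each population was sorted from wild-type mice (WT) and from those labelled Aire KO, with 3 libraries in each of the 6 groups. The strain label is B6.129S2-Airetm1.1Doi/J for WT and KO alike and no Cre driver is named. The labels name no marker for the lo and hi fractions and do not say if a library came from single or pooled mice, so p-values measure only the spread between these libraries.

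Most S100 proteins form dimers and change shape when they bind calcium, which exposes a surface for partner proteins. S100a8 and S100a9 form calprotectin, a major protein of neutrophils that also acts outside cells on Toll-like receptor 4 and on RAGE. S100a7a is a relative of psoriasin of inflamed skin, S100a4 and S100a6 are cytosolic regulators of the cytoskeleton and of annexins, S100a10 binds annexin A2 at membranes, S100a14 is an epithelial member, S100b is abundant in glia, and S100g is calbindin D9k, a carrier of calcium in the intestine that vitamin D induces. In the medulla of the thymus, Aire drives the transcription of many genes that are otherwise restricted to single tissues, which exposes developing T cells to their products.

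The libraries hold 4.54 to 18.1 Gb of aligned bases on genes. Pearson's r of log2 values between libraries of a group was 0.971 to 0.995 across genes, with the lowest in KO cTEC. Aire itself was at 658, 681 and 693 RPKM (reads on a gene scaled to its length and to the size of the library) in the WT mTEChi libraries and at 1126, 1001 and 1091 in the KO mTEChi libraries. These are values of the whole gene, and the deleted part is not given in the labels, so they do not check the genotype. Aire was at 7.75, 9.13 and 12.8 RPKM in WT mTEClo and 33.1, 21.5 and 16.3 in KO mTEClo, and at 2.09, 3.95 and 7.39 in WT cTEC and 95.6, 35.9 and 27 in KO cTEC. KO cTEC thus carried more of this mTEChi transcript than WT cTEC (log2 change 3.49, SE 0.43, adjusted p = 4.13e-05), and its replicate 1 carried the most. Summed RPKM of 8 cTEC markers was 1324 to 1893 in WT cTEC, 1099.7 to 1927 in KO cTEC, 892 to 973 in WT mTEClo and 400.1 to 445 in WT mTEChi. Ctsl, Prss16 and Tbata were the most abundant of them over all groups, and Tbata was higher in mTEChi (213 RPKM in WT) than in cTEC (97.8 RPKM in WT). Summed over 10 mTEC markers, led by Krt5, Krt14 and Aire, the level was 1213 to 1417 in WT cTEC, 1632 to 1718 in KO cTEC, 2913 to 3477 in WT mTEClo and 1935 to 2055 in WT mTEChi.

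Of the 17 S100 genes of the tables, 14 lie on chromosome 3, and 12 of these stand within 184.7 kb (coordinates of mm10). In order along the chromosome they are S100a1, S100a13, S100a14 (chr3:90526849-90528835), S100a16, S100a2, S100a3, S100a4 (chr3:90603770-90606045), S100a5, S100a6 (chr3:90612894-90614414), S100a7a (chr3:90654302-90658130), S100a8 (chr3:90669071-90670034) and S100a9 (chr3:90692633-90695691). S100a11 and S100a10 (chr3:93555117-93564645) follow further along. S100b (chr10:76253836-76261319) and S100g (chrX:162961992-162964599) lie apart on chromosomes 10 and X, and S100g stands inside Ctps2, on the strand opposite to it, with 0 of Ctps2's annotated exons overlapping it. These are spans of whole genes, introns included.

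RefSeq promoter windows (assembly GRCm38.p6, 250 bases before to 50 after an annotated start) were found for 7 of the 9 genes. Those of 6 are shown, S100a8, S100a9 and S100a7a, which were lower in KO mTEChi, and S100a4, S100a6 and S100g, which were higher there. Capitals mark matches, on either strand, to 1 of 4 motifs. The TATA box was searched as TATAAA. The letters searched for C/EBP factors were TTNNGNAA, where N is any base. For AP-1 the search used TGANTCA. The half-site of nuclear receptors was searched as AGGTCA. The windows are chr3:90668821-90669120, plus strand, chr3:90695672-90695971, minus strand, chr3:90654052-90654351, plus strand, chr3:90603520-90603819, plus strand, chr3:90612644-90612943, plus strand and chrX:162964550-162964849, minus strand, each printed along its gene's strand.
S100a8: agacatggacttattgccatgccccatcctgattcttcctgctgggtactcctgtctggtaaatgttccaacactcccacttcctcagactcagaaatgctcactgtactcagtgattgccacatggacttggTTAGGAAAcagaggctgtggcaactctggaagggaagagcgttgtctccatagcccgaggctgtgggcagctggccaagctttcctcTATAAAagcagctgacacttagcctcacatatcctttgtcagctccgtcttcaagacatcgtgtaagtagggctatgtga
S100a9: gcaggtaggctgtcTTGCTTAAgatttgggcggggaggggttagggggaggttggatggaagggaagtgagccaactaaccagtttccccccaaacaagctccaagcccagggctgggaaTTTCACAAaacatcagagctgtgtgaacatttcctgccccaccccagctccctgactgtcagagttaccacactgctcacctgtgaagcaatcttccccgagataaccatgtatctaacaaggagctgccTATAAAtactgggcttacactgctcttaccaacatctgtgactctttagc
S100a7a: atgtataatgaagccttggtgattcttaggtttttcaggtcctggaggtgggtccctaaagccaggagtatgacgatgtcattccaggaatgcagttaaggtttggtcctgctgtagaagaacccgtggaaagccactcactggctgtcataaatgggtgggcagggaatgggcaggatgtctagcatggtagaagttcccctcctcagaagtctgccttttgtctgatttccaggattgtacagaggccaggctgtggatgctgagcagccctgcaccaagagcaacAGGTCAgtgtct
S100a4: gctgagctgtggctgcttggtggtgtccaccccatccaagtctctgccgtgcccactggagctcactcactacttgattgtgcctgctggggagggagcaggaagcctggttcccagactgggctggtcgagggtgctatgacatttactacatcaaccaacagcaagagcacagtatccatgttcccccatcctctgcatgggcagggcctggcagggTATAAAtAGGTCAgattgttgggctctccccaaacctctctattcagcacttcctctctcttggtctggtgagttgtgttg
S100a6: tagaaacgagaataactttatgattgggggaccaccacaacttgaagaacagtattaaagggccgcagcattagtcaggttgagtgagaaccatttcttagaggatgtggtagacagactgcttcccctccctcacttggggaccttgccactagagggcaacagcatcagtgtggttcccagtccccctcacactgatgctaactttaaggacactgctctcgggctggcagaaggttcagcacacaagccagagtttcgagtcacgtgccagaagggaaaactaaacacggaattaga
S100g: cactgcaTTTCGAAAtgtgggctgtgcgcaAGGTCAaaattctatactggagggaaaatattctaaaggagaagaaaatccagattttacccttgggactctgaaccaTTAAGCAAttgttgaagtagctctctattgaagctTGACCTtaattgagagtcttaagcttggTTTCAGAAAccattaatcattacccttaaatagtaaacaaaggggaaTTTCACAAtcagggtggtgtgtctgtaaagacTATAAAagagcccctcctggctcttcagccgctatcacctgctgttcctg
TATAAA was in 4 of the 7 windows and in 13.6% of all 32851 windows of this length in the table. It began 30 bases before the start of S100a8 and 31 before that of S100a4, and at the annotated start itself (position 1) in S100a9 and S100g. The C/EBP letters were in 3 of the 7, S100a8, S100a9 and S100g, and in 40.7% of all windows. AGGTCA was in S100a4, S100a7a and S100g, and in 16.3% of all. TGANTCA was in none of the 7 and in 7.81% of all. The TATA box of S100a4 and its AGGTCA are 1 base apart, and in S100g some C/EBP matches overlap each other. The 7 windows hold 2 to 6 CpG each, against a median of 7 over all windows. The genes that were lower and those that were higher in KO mTEChi are both found among the windows with TATAAA.

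Within WT cells the S100 genes were compared between the 3 populations first. WT mTEChi had 7 of the 9 genes higher than WT mTEClo and 1 lower, where 41.6% of all tested genes were higher and 31.1% lower (limma on log2 of RPKM + 0.1, Benjamini-Hochberg adjusted p under 0.05 over all tested genes). The median log2 difference was 3.10 for the 9 genes and 0.12 for all genes. Against WT cTEC the counts were again 7 higher and 1 lower, with 46.6% and 31.8% of all genes. In both comparisons S100a10 was the gene that was lower and S100a6 the one that was not called. Between WT mTEClo and WT cTEC, 4 genes were higher in mTEClo (S100a8, S100a9, S100a14, S100g) and 4 lower (S100a4, S100a6, S100a7a, S100a10), against 24.6% and 18.2% of all genes. Of these 8 calls, those of S100a6, S100a10, S100a8 and S100a4 are lost when single libraries are left out. S100a6 (log2 -0.35) is lost without any one of the libraries other than mTEClo replicate 3, with an adjusted p of up to 0.142 without mTEClo replicate 1. S100a10 (log2 -0.46) is lost without replicate 1 or 2 of either group, with an adjusted p of up to 0.0803. The call of S100a8 (log2 1.25) ends without cTEC replicate 3 (0.68, adjusted p = 0.154) and without mTEClo replicate 1 or 3 (adjusted p = 0.0671 and 0.0599). S100a4 (log2 -1.40) is lost without cTEC replicate 3 (-0.94, adjusted p = 0.0895).

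By RPKM, which is per length, S100a14 was the most abundant of the 9 genes in WT mTEChi, at 594, 558 and 475 RPKM, or 40.2% of the summed level of the 9. S100a8 and S100a6 came next with means of 222 and 165 RPKM, then S100g with 126, S100a9 with 116, S100a4 with 91.0 and S100a10 with 80.2. S100a8 and S100a6 had ranges that overlapped, 181 to 244 and 133 to 189.7 RPKM, as did those of S100a6 and S100g, S100g and S100a9 overlapped (105 to 148 and 96.9 to 130.5 RPKM), and so did S100a4 and S100a10 (84.3 to 95 and 70.6 to 85.9 RPKM). S100a7a and S100b were far lower, with means of 5.41 and 1.93 RPKM. WT cTEC had another order: S100a10 made 48.4% and S100a6 36.2% of the summed level there, and S100a14 7.42%. The 9 genes together summed to 491 to 539 RPKM in WT cTEC, 399 to 465 in WT mTEClo and 1154 to 1453 in WT mTEChi.

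**Figure D1:**
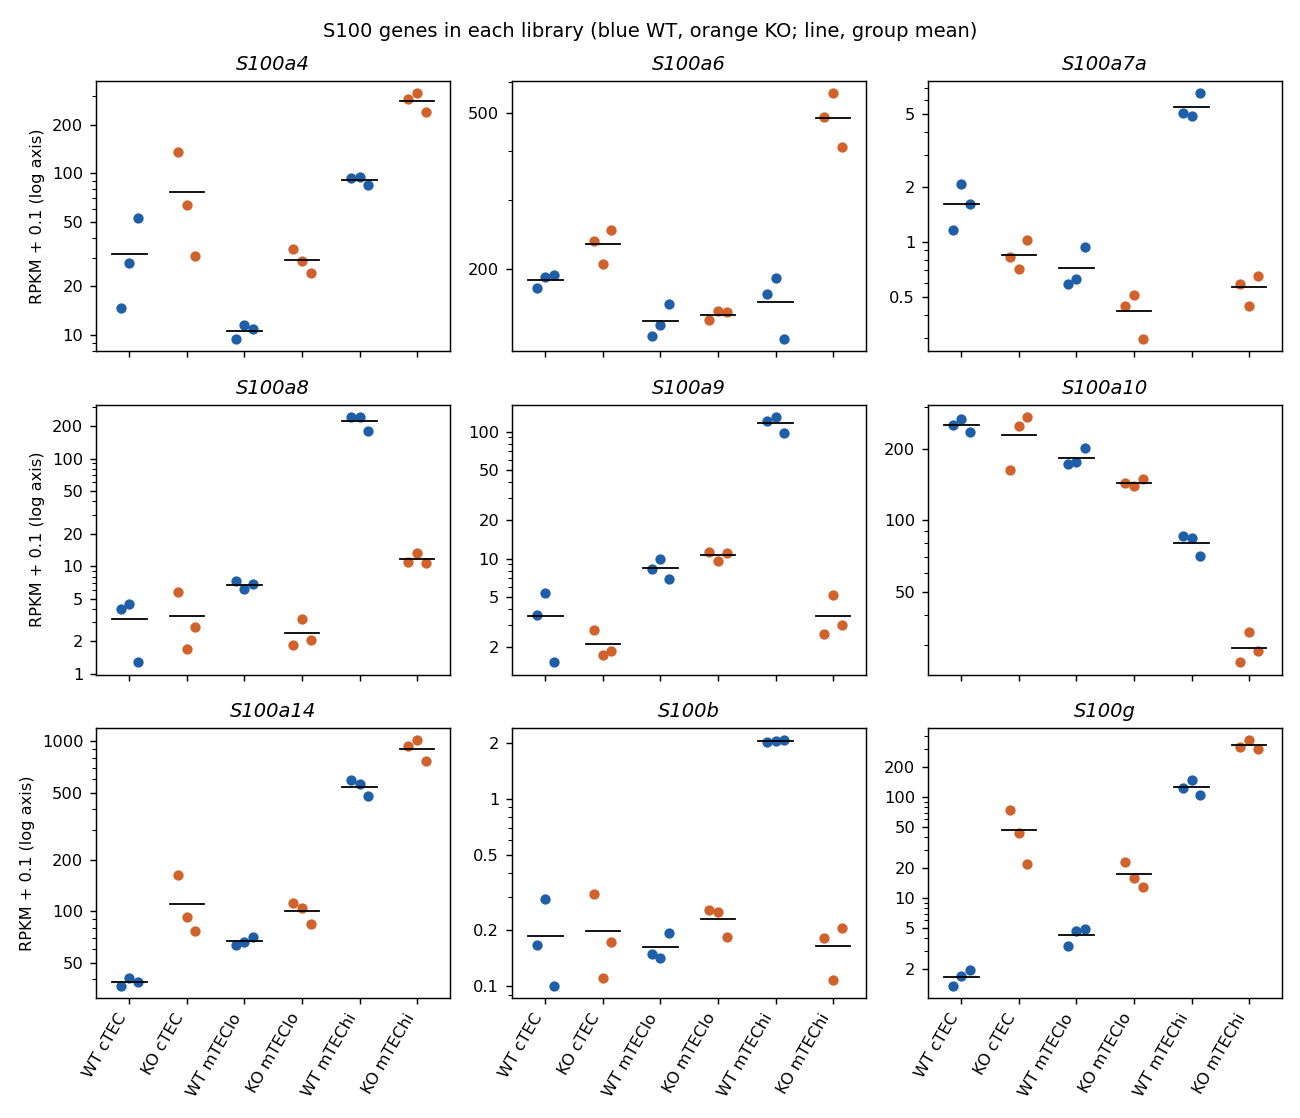
RPKM + 0.1 on a log axis for the 9 S100 genes, 1 panel each, in the 18 libraries (points, blue WT, orange KO) with the group mean as a line. In mTEChi the WT and KO points are apart in every panel, with KO above WT for S100a4, S100a6, S100a14 and S100g and below it for the other 5 genes.

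The main comparison asks how the S100 genes of mTEChi differ by genotype, since this is the population with the most Aire. All 9 were called: 4 were higher in KO (S100a4, S100a6, S100a14, S100g) and 5 lower (S100a7a, S100a8, S100a9, S100a10, S100b). As the 9 were chosen with earlier results of these data known, this count is not a test of S100 genes against the shares over all genes. Of all tested genes 9.57% were higher and 52.8% lower, so a gene that is lower in KO mTEChi is common in these data and a gene that is higher is less so. The filter can be passed through the 3 WT mTEChi libraries alone. These had 19428 to 19558 genes at 0.1 RPKM or above, against 15417 to 16512 in the other libraries. Such genes are lower in KO almost by selection, and their number was not counted. Other shares that set WT mTEChi against another group may include them too, as may the gene lists below. The libraries of the 2 genotypes did not overlap for any of the 9. The share of all tested genes without overlap was not counted, so this is not read as particular to S100 genes. The median log2 change was -1.47 for the 9 genes and -0.39 for all genes. The 9 genes split in direction, so their median, which is the value of S100a10, shows no common shift. The other 8 S100 genes had a median of 0.81. Quantile normalization moved the median of all genes to 0.08 and the calls over all genes from 1862 higher and 10269 lower to 6064 higher and 4808 lower. Under it 8 of the 9 calls held with the same direction, and S100a14 was at 0.46 with an adjusted p of 0.0675. The 9 calls also held in mTEChi without any one of its 6 libraries.

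In mTEClo, 2 of the 9 genes were higher in KO (S100a4, S100g) and 1 lower (S100a8), against 7.93% higher and 8.04% lower of all genes. In cTEC, 2 were higher (S100a14, S100g) and 1 lower (S100a7a), against 13.3% and 6.76%. These shares are also the background for the later KO minus WT counts in mTEClo and cTEC. Over all genes, centring on housekeeping genes turned the mTEClo calls from 1542 higher and 1563 lower into 1024 higher and 3115 lower, and quantile normalization the cTEC calls from 2593 higher and 1315 lower into 2213 higher and 2159 lower. S100g was called higher in KO in all 3 populations.

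**Figure D2:**
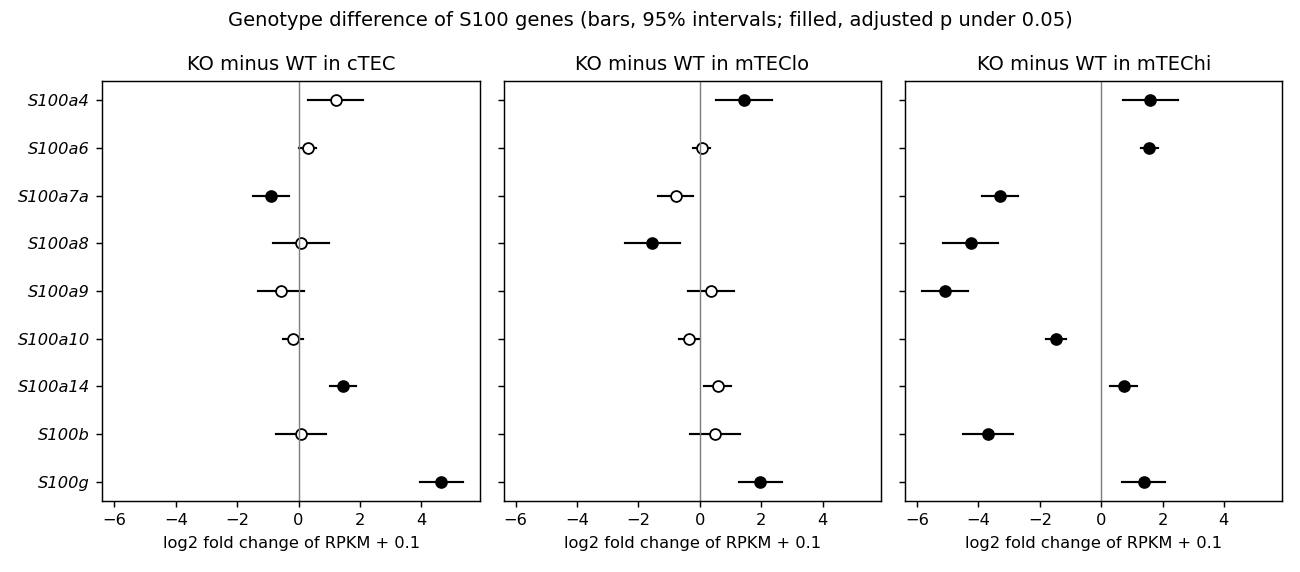
Log2 fold change of RPKM + 0.1, KO minus WT, for the 9 S100 genes in cTEC, mTEClo and mTEChi (points; filled where the adjusted p is under 0.05; bars are 95% intervals). In mTEChi S100a9 lies farthest to the left at -5.08, and in cTEC S100g farthest to the right at 4.65.

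S100a8 and S100a9, the subunits of calprotectin, were lower by more than 10-fold in KO mTEChi. S100a8 was at 244, 241 and 181 RPKM in the WT mTEChi libraries and 10.8, 13.2 and 10.5 in the KO libraries (log2 change -4.25, SE 0.42, adjusted p = 3.40e-07). Every KO library lay below every WT library. S100a9 was at 120.2, 130.5 and 96.9 RPKM in WT against 2.43, 5.06 and 2.89 in KO mTEChi (log2 change -5.08, SE 0.35, adjusted p = 5.25e-09). This was the largest fall among the 9 genes. In mTEClo the partners parted: S100a8 was at 7.14, 6.05 and 6.73 RPKM in WT against 1.76, 3.1 and 1.94 in KO (log2 change -1.55, SE 0.42, adjusted p = 0.0219), and S100a9 at 8.18, 9.81 and 6.8 and 11.2, 9.45 and 11 (log2 change 0.36, SE 0.35, adjusted p = 0.549). The WT and KO values of S100a8 were apart and those of S100a9 overlapped. The call of S100a8 in mTEClo is lost without KO replicate 1 or 3 or WT replicate 1 or 3, with log2 values of -1.40 to -1.54 and adjusted p of 0.0697 to 0.0817. In cTEC both genes were low, S100a8 at 3.89, 4.34 and 1.17 RPKM in WT against 5.68, 1.6 and 2.64 in KO, S100a9 at 3.52, 5.28 and 1.42 and 2.64, 1.65 and 1.77. Neither was called there (adjusted p = 0.944 and 0.282). S100a9 was at -1.09 with an adjusted p of 0.0141 without WT cTEC replicate 3, which has the lowest value of its group.

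The ratio of S100a8 to S100a9 was taken within each library. It was 2.03, 1.85 and 1.87 in WT mTEChi and 4.46, 2.61 and 3.63 in KO mTEChi, 0.873, 0.617 and 0.989 in WT mTEClo and 0.157, 0.328 and 0.177 in KO mTEClo, and 1.11, 0.821 and 0.826 in WT cTEC and 2.15, 0.969 and 1.49 in KO cTEC. KO libraries had the higher ratio in mTEChi and the lower one in mTEClo, with no overlap in either. The log2 ratio differed between KO and WT by 0.83 in mTEChi, -1.91 in mTEClo and 0.66 in cTEC. Exact two-sided permutation tests gave p = 0.1, 0.1 and 0.2, which are 0.15, 0.15 and 0.2 when adjusted over the 3 tests, and 0.1 is the smallest p that 3 against 3 libraries can give. Over the 18 libraries the centred log2 profiles of S100a8 and S100a9 differed by a root mean square of 1.28. The smallest such difference among the 9 genes was 0.81, for S100a7a and S100b. The profiles' own root mean square spread was 2.31 for S100a8, 1.96 for S100a9, 1.26 for S100a7a and 1.39 for S100b. The differences are not scaled to this spread, so they do not show that S100a8 and S100a9 are less alike in shape.

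**Figure D3:**
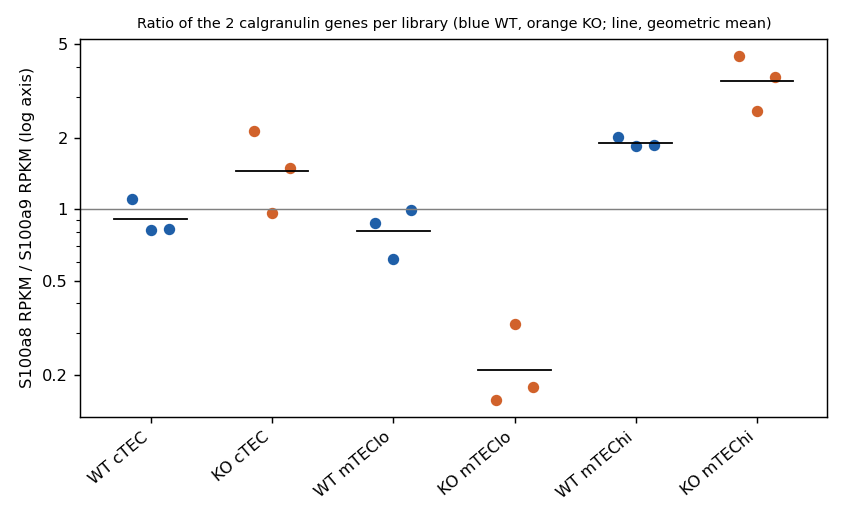
RPKM of S100a8 divided by RPKM of S100a9 in each library, on a log axis, by group (points, blue WT, orange KO; lines are geometric means). The KO mTEClo libraries lie at 0.157 to 0.328 and the KO mTEChi libraries at 2.61 to 4.46.

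Neutrophils are rich in both calprotectin subunits, so neutrophil markers were read beside them. Summed RPKM of the 13 markers in the tables was 152 to 191 in WT mTEChi and 23.7 to 24.9 in KO mTEChi, 186 to 228 in WT mTEClo and 133 to 157 in KO mTEClo, and 74.8 to 100.5 in WT cTEC and 79.8 to 97.2 in KO cTEC. Mmp9, Lcn2 and Ltf were the most abundant. In WT mTEClo most of the sum came from Mmp9 (72.7 RPKM), Cd177 (55.5), Ltf (39) and Lcn2 (30.4). Mpo, Camp and Ngp were at 0.322, 0.794 and 0.0998 RPKM there. Of the 13, 9 were higher and 2 lower in WT mTEChi than in WT mTEClo, where S100a8 and S100a9 were also higher in mTEChi, against 41.6% and 31.1% of all genes. In KO mTEChi 11 of the 13 were called lower than in WT and 0 higher (9 and 0 under quantile normalization), against 52.8% and 9.57% of all genes. In mTEClo 1 was higher and 4 lower, and in cTEC 1 higher and 1 lower. Under 1 RPKM in WT mTEChi were Elane (0.132 in WT against 0.00919 in KO), Cxcr2 (0.303 against 0.023) and Csf3r (0.731 against 0.0377). The granule genes Mpo, Camp and Ngp were at 26, 29.2 and 11.3 RPKM in WT mTEChi and at 0.172, 1.08 and 0.0792 in KO. Retnlg was at 2.77 against 0.0488 RPKM and Mmp8 at 1.06 against 0.0918. These 8 markers, and Cd177, were named after their values were seen. The part of neutrophils in the levels of S100a8 and S100a9 was not tested, and in bulk libraries fewer cells of a type and less RNA per cell cannot be told apart.

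RNA of 7 genes of receptors and signalling downstream of calprotectin was read beside it. In KO mTEChi 1 was higher and 5 lower, against 9.57% and 52.8% of all genes, with a median log2 change of -0.44 against -0.39 for all genes, which is near the background. Cd14, a co-receptor of Toll-like receptor 4, was at 20.3 RPKM in WT against 3.09 in KO (log2 change -2.69, SE 0.15, adjusted p = 4.10e-10). Tlr4 itself was at 2.39 and 0.889 RPKM (adjusted p = 1.03e-05), and the scavenger receptor Cd36 at 2.89 and 0.524 (adjusted p = 3.07e-05). The other lower genes were Bsg and Myd88, and the gene that was higher was Ager, which encodes RAGE (3 and 5 RPKM). These last 3 are outside the rule for naming genes and were chosen after their values were seen. Ly96, the partner of Tlr4, was not called (5.06 and 4.53 RPKM, adjusted p = 0.476). Under quantile normalization 1 was higher and 3 lower, and Tlr4 was at -0.38 and not called (adjusted p = 0.0971). In mTEClo 0 of the 7 were called, with Bsg at 122 RPKM in WT against 132 in KO. In cTEC Cd14 was the 1 gene called, higher in KO (5.69 and 14.1 RPKM), and Bsg was at 139 and 145.

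S100a7a, the neighbour of S100a8, had its highest level in WT mTEChi and was lower there in KO. It was at 4.99, 4.81 and 6.43 RPKM in WT against 0.492, 0.348 and 0.556 in KO mTEChi (log2 change -3.29, SE 0.27, adjusted p = 4.28e-08). With 1 in place of 0.1 added to RPKM the change was -2.12. The KO values overlap those of KO mTEClo, which was at 0.347, 0.413 and 0.195 RPKM, and WT mTEClo was at 0.489, 0.531 and 0.841. The difference in mTEClo was not called (log2 change -0.79, SE 0.27, adjusted p = 0.0618), although its groups did not overlap. In cTEC S100a7a was at 1.07, 1.98 and 1.51 RPKM in WT against 0.725, 0.614 and 0.922 in KO (log2 change -0.90, SE 0.27, adjusted p = 0.0292). That call is lost without KO replicate 1 or 2 or WT replicate 2 or 3, with log2 values of -0.70 to -0.89 and adjusted p of 0.0711 to 0.110. Beside S100a7a, 13 markers of cornified keratinocytes, led by Sprr1a, Krtdap and Asprv1, summed to 604 to 665 RPKM in WT against 299 to 400.3 in KO mTEChi, to 329.8 to 446 and 448 to 659 in mTEClo, and to 47.1 to 52.9 and 125 to 188 in cTEC. Of them 10 were lower and 0 higher in KO mTEChi, against 52.8% and 9.57% of all genes. In KO cTEC 7 were higher and 0 lower, against 13.3% and 6.76% of all genes. Their part in the level of S100a7a was not tested.

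S100a4 and S100a6 were about 3-fold higher in KO mTEChi. S100a4, which binds non-muscle myosin, was at 93.8, 95 and 84.3 RPKM in WT against 286, 312 and 238 in KO mTEChi (log2 change 1.61, SE 0.43, adjusted p = 0.00392). S100a6, also called calcyclin, was at 173, 189.7 and 133 RPKM in WT against 489, 561 and 410.2 in KO (log2 change 1.56, SE 0.13, adjusted p = 4.96e-08). All KO libraries were above all WT libraries for both genes. S100a4 was also higher in KO mTEClo, with 9.39, 11.4 and 10.8 RPKM in WT against 33.9, 28.6 and 24.1 in KO (log2 change 1.44, SE 0.43, adjusted p = 0.0323). That call is lost without any one of the 6 libraries, with adjusted p of 0.0542 to 0.105 and log2 values of 1.32 to 1.56. S100a6 in mTEClo was at 135, 144 and 163 RPKM in WT against 148, 156 and 155 in KO (log2 change 0.06, SE 0.13, adjusted p = 0.826, 95% interval -0.22 to 0.34). Its values overlapped there. In cTEC S100a4 spread widely, from 14.5 to 52.6 RPKM in WT and from 30.8 to 135 in KO (log2 change 1.21, SE 0.43, adjusted p = 0.0584). It was at 1.73 without KO cTEC replicate 3 (adjusted p = 0.00387) and at 1.67 without WT cTEC replicate 3 (adjusted p = 0.0128). S100a6 was at 179, 191 and 193 RPKM in WT cTEC and 237, 206 and 252 in KO cTEC (log2 change 0.30, SE 0.13, adjusted p = 0.127), and at 0.37 with an adjusted p of 0.0348 under quantile normalization.

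Fibroblasts and myeloid cells also express S100a4 and S100a6, and their markers were read beside them. Summed over 10 fibroblast markers, led by Dcn, Col3a1 and Thy1, the level was 74.1 to 79.1 RPKM in WT against 53.1 to 69.1 in KO mTEChi, 88.4 to 119 and 66.7 to 101 in mTEClo, and 427 to 487 and 200.1 to 438 in cTEC. In mTEChi 7 of the 10 were lower in KO and 1 higher, against 52.8% and 9.57% of all genes. Dcn, which leads the list, was at 15.7 RPKM in WT against 32.7 in KO mTEChi. Under quantile normalization 3 of the 10 were lower and 3 higher. The 12 markers of macrophages and dendritic cells summed to 345 to 373 RPKM in WT against 359 to 390.0 in KO mTEChi, 27.5 to 35.2 and 70.3 to 140.2 in mTEClo, and 27.6 to 67 and 113 to 156 in cTEC, with Lyz2, Cd68 and Flt3 the most abundant. In mTEChi 1 of the 12 was higher and 9 lower, against 9.57% and 52.8% of all genes, or 2 and 2 under quantile normalization. Cd68 was at 11.1 RPKM in WT against 21.1 in KO mTEChi. In mTEClo and in cTEC 2 were higher and 0 lower. Of all genes 7.93% were higher and 8.04% lower in mTEClo, and 13.3% and 6.76% in cTEC. Thymocyte markers, 11 genes led by Thy1, Lck and Cd8b1, summed to 56.4 to 81.2 RPKM in WT against 27.3 to 45.6 in KO mTEChi, 17.5 to 43.5 and 14.8 to 32.3 in mTEClo, and 43.7 to 89.9 and 32.6 to 42.5 in cTEC. Lyz2 made most of the myeloid sums, with 25.9 RPKM in WT against 88 in KO mTEClo and 38 against 119 in cTEC, so the higher sums in KO are largely those of 1 gene. The part of these cell types in the levels of S100a4 and S100a6 was not tested.

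S100a14, the epithelial member, was the most abundant of the 9 genes in mTEChi of both genotypes and higher in KO. It was at 594, 558 and 475 RPKM in WT against 933, 1013 and 771 in KO mTEChi (log2 change 0.74, SE 0.20, adjusted p = 0.00514), and its share of the summed level of the 9 was 40.2% in WT and 44.4% in KO. The groups did not overlap. In cTEC it was at 36.3, 40.7 and 38.4 RPKM in WT against 164, 92 and 76.2 in KO (log2 change 1.44, SE 0.20, adjusted p = 0.000134). KO replicate 1 was the highest of the 6. In mTEClo it was at 63.7, 65.5 and 70.7 RPKM in WT against 112, 104 and 83.8 in KO (log2 change 0.58, SE 0.20, adjusted p = 0.0677), again with no overlap.

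S100g, calbindin D9k, rose in KO in each population. It was at 124, 148 and 105 RPKM in WT against 313, 363 and 301 in KO mTEChi (log2 change 1.38, SE 0.33, adjusted p = 0.0016). In mTEClo it was at 3.22, 4.62 and 4.78 RPKM in WT against 22.7, 15.6 and 12.7 in KO (log2 change 1.97, SE 0.33, adjusted p = 0.0011). The largest log2 difference was in cTEC, with 1.24, 1.6 and 1.85 RPKM in WT against 74.6, 43.6 and 21.7 in KO (log2 change 4.65, SE 0.33, adjusted p = 4.42e-07). WT and KO libraries were apart in all 3 populations. Ctps2, the gene around S100g, was at 8.95 RPKM in WT against 12.7 in KO mTEChi, a log2 change of 0.51 against 1.38 for S100g. In cTEC it changed by 0.34 against 4.65, and in mTEClo by 0.39 against 1.97. Whether the authors' counting used strand is not stated in the labels.

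S100g, S100a14 and S100a4 were read beside Aire in each library. KO cTEC replicate 1, with the highest Aire among cTEC libraries (95.6 RPKM), also had the highest S100g (74.6), S100a14 (164) and S100a4 (135) among them. In mTEClo the KO libraries had 16.3 to 33.1 RPKM of Aire against 7.75 to 12.8 in WT, and S100g, S100a14 and S100a4 were all highest in KO replicate 1, which had the most Aire. This order was not seen within mTEChi. KO mTEChi replicate 2 had the least Aire of the KO libraries there (1001 RPKM) and the highest S100g (363), S100a14 (1013) and S100a4 (312). WT mTEChi replicate 3 had the most Aire of the WT libraries there (693) and the lowest S100g (105), S100a14 (475) and S100a4 (84.3). Without KO cTEC replicate 1 the differences of S100g and S100a14 in cTEC remained called. This does not remove the difference in Aire, as KO cTEC replicates 2 and 3 had 35.9 and 27 RPKM against at most 7.39 in WT. When only the 6 cTEC libraries entered the model, the differences of S100g and S100a14 were not called (S100g adjusted p = 0.0677, S100a14 adjusted p = 0.102). The part of mTEChi cells or their RNA in these libraries was not tested.

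**Figure D4:**
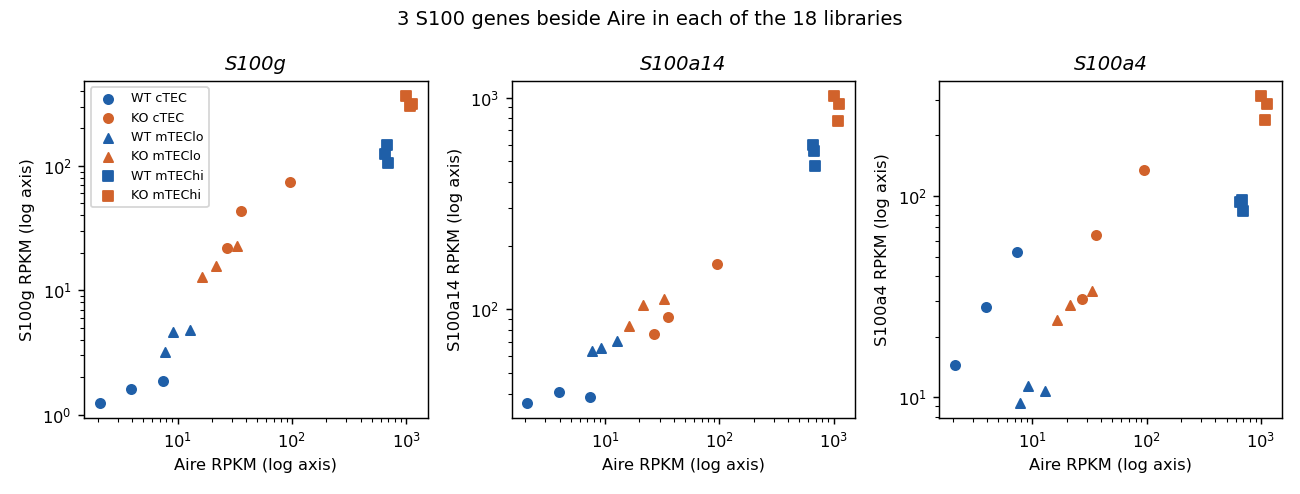
RPKM of S100g, S100a14 and S100a4 (vertical log axes) against RPKM of Aire (horizontal log axes) in each of the 18 libraries, with symbols for the population and colours for the genotype (blue WT, orange KO). In cTEC and mTEClo the KO library with the most Aire has the highest value of each gene among the libraries of its population. In mTEChi the highest value of each gene is instead in the KO library with the least Aire.

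Vitamin D induces S100g in the intestine, and other genes of vitamin D action and calcium transport were read beside it. Of 7 such genes 5 were lower and 0 higher in KO mTEChi, against 52.8% and 9.57% of all genes, with a median log2 change of -1.62 against -0.39. Calb2, which encodes calretinin, was at 19.8 RPKM in WT against 0.00581 in KO (log2 change -7.52, SE 0.35, adjusted p = 5.64e-11). Cyp24a1, the enzyme that degrades active vitamin D, was at 1.15 and 0.0337 RPKM (adjusted p = 3.29e-09), and the calcium channel Trpv6 at 0.821 and 0.0497 (adjusted p = 2.39e-08). Calb1, which encodes calbindin D28k, and the calcium pump Atp2b1 were the other 2, named after their values were seen. Under quantile normalization the same number were lower and 1 was higher, Slc8a1 (log2 1.32). Vdr, the vitamin D receptor, was at 33.6 RPKM in WT against 37.4 in KO mTEChi and was not called (log2 change 0.15, SE 0.21, adjusted p = 0.547). In mTEClo Calb2 (listed at 0 in KO) and the sodium-calcium exchanger Slc8a1 were lower and 0 higher, and Atp2b1 was not called (15.7 and 14.3 RPKM). In cTEC Vdr was higher in KO (3.82 and 10.4 RPKM, adjusted p = 0.000378), 0 were lower, and Atp2b1 was not called (20.4 and 21 RPKM).

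S100a10 had its highest WT level in cTEC and its lowest in mTEChi. It was at 252, 266 and 235 RPKM in WT cTEC, 171, 176 and 201 in WT mTEClo and 85.9, 83.9 and 70.6 in WT mTEChi. The 3 WT groups did not overlap. In KO mTEChi it fell further, to 25.1, 33.7 and 28 RPKM (log2 change -1.47, SE 0.16, adjusted p = 6.17e-07). In KO mTEClo it was at 143, 139 and 149 RPKM (log2 change -0.34, SE 0.16, adjusted p = 0.152) and in KO cTEC at 162, 248 and 272 (log2 change -0.18, SE 0.16, adjusted p = 0.476). Neither was called, and the cTEC groups overlapped. The mTEClo difference was called when only the 6 mTEClo libraries entered the model (adjusted p = 0.0354) and when libraries were centred on housekeeping genes (log2 -0.44, adjusted p = 0.0284).

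Of 8 genes of partners and cargo of S100a10, 6 were lower and 0 higher in KO mTEChi, against 52.8% and 9.57% of all genes, with a median log2 change of -1.12 against -0.39. The calcium channels Trpv6 and Trpv5, which the complex carries to the membrane, were at 0.821 and 0.298 RPKM in WT against 0.0497 and 0.00248 in KO. Trpv6 is also in the list of vitamin D action and calcium transport, so the counts of these lists are not independent. Anxa1 was at 205 and 85.5 RPKM (log2 change -1.27, SE 0.13, adjusted p = 3.58e-07). Anxa2, the direct partner of S100a10, was at 112 and 57.8 (log2 change -0.96, SE 0.11, adjusted p = 2.25e-06), and is given for that role, outside the rule for naming genes. Anxa11 was not called (26.2 and 23.7 RPKM). Under quantile normalization 4 of the 8 were lower and 0 higher, with 6064 higher and 4808 lower over all genes, and Trpv5 was at -0.25 and not called (adjusted p = 0.153). In mTEClo 2 of the 8 were higher in KO, Anxa11 and the plasminogen activator Plat, and 0 lower, with Anxa2 at 675 and 589 RPKM and not called. In cTEC 4 were higher, Anxa1, Anxa11, Plat and Plg, and 0 lower, and Anxa2 was at 546 and 554 RPKM and not called.

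S100b, the glial member, was the least abundant of the 9 genes and was above 1 RPKM in WT mTEChi alone among the 6 groups. Its level was 1.9, 1.93 and 1.95 RPKM in WT mTEChi and 0.08, 0.00767 and 0.105 in KO mTEChi (log2 change -3.68, SE 0.38, adjusted p = 5.33e-07). The size of this fall depends on the small number added to low values: it was -5.10 with 0.01 added, -1.46 with 1 added, and -2.55 under quantile normalization, and was called each time. In the other 4 groups S100b ran from 0 to 0.211 RPKM, and it was called in neither mTEClo nor cTEC (adjusted p = 0.425 and 0.922). Summed over 9 glial and Schwann cell markers, led by Foxd3, Erbb3 and Mbp, the level was 43 to 48.9 RPKM in WT against 46.3 to 48.7 in KO mTEChi. It was 14.1 to 16.7 and 20.5 to 24.5 in mTEClo, and 10.7 to 12.7 and 15.9 to 23.6 in cTEC. Of the 8 that could be tested, 5 were lower in KO mTEChi and 2 higher, against 52.8% and 9.57% of all genes. Foxd3, which leads the list, was at 8.35 RPKM in WT against 20.7 in KO mTEChi. Olig2 was at 1.34 RPKM in WT against 4.41 in KO mTEChi and Mbp at 11.9 against 13.9, while Sox10 was at 2.14 against 0.033. Cdh19, at 0.0607 RPKM in WT against 0.00648 in KO mTEChi, was too low to be tested. Olig2, Cdh19 and Sox10 are outside the rule for naming genes. The part of glial cells in the level of S100b was not tested.

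Along chromosome 3 the genotype difference in mTEChi changed sign between S100a6 and S100a7a. Of the 9 genes from S100a1 to S100a6, 7 were higher in KO and 0 lower, with S100a2 and S100a3 not called (log2 0.94 and 0.42). All 3 genes from S100a7a to S100a9 were lower, with log2 changes of -3.29, -4.25 and -5.08 in that order. S100a11 and S100a10 were lower too. Of all genes 9.57% were higher in KO mTEChi and 52.8% lower, so lower genes are common there. The order was seen in these data and has no test of its own. In mTEClo the called genes of chromosome 3 were S100a1, S100a4 and S100a5 (higher) and S100a8 (lower). In cTEC they were S100a1, S100a13, S100a14, S100a16, S100a3 and S100a5 (higher) and S100a7a (lower). Of all genes 7.93% were higher and 8.04% lower in mTEClo, and 13.3% and 6.76% in cTEC.

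**Figure D5:**
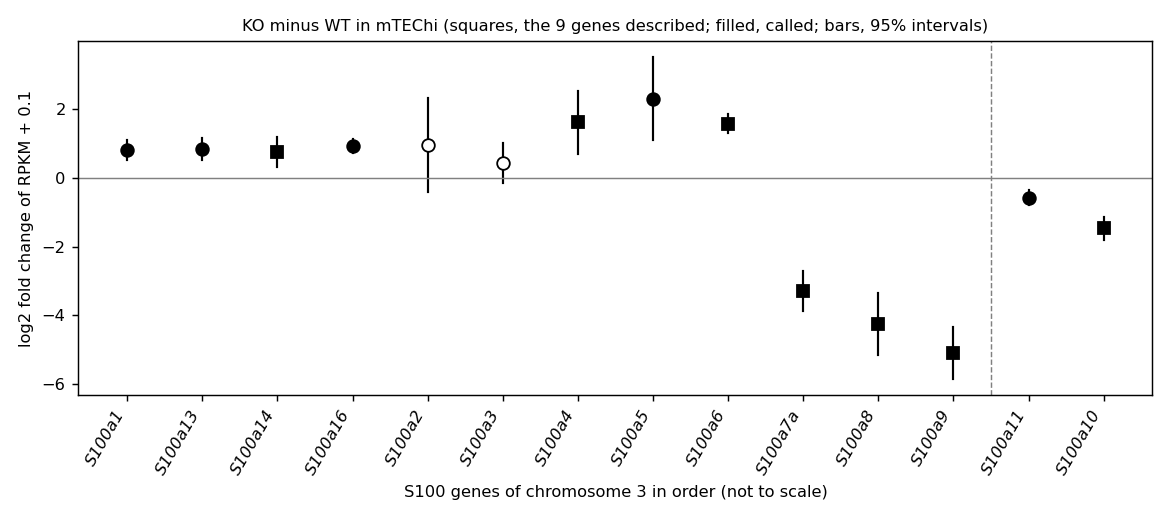
Log2 fold change of RPKM + 0.1, KO minus WT in mTEChi, of the 14 S100 genes of chromosome 3 in gene order (not to scale; bars are 95% intervals; squares are the genes described here, circles the other S100 genes; filled where called). Points lie above 0 from S100a1 to S100a6, and below 0 from S100a7a on; the dashed line marks the gap before S100a11.

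The other 8 S100 genes of the tables were higher more often than lower in KO: 4 higher and 1 lower in mTEChi (against 9.57% and 52.8% of all genes), 2 higher and 0 lower in mTEClo, and 5 higher and 0 lower in cTEC. S100a1, a calcium sensor of muscle, was higher in KO in all 3 populations (118 and 204 RPKM in WT and KO mTEChi). S100a16 was at 324 and 616 RPKM in mTEChi, S100a13 at 87.6 and 154, and S100a5 at 3.97 and 19.1. S100a11, which binds annexin A1, was the 1 that was lower, at 189.8 and 127 RPKM (log2 change -0.58, SE 0.10, adjusted p = 0.00016). S100a2, S100a3 and S100z were not called in mTEChi. These counts in mTEChi were also 4 and 1 under quantile normalization and when centred on housekeeping genes. In mTEClo the latter made S100a16 lower (log2 -0.26, adjusted p = 0.0173). The S100-fused proteins, large proteins of the cornified skin surface whose genes share an origin with S100 genes, had 3 of 6 lower and 0 higher in KO mTEChi, a share of lower genes near the 52.8% of all genes. Tchhl1 was at 1.75 and 0.0293 RPKM, Tchh at 26.8 and 9.43, and Hrnr at 3.43 and 1.13, while Rptn, at 117 and 86.8, was not called. Flg2 was higher under quantile normalization (log2 1.14). In mTEClo 1 was higher (Crnn, 2.74 and 10.1 RPKM) and 0 lower, with Rptn at 24 and 36 and not called. In cTEC 4 were higher, Crnn, Rptn, Hrnr and Flg2, and 0 lower, with Tchh at 9.81 and 10.8 RPKM and not called.

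Within KO cells the populations were compared in the same way. KO mTEChi had 5 of the 9 genes higher than KO mTEClo (S100a4, S100a6, S100a8, S100a14, S100g) and 2 lower (S100a9, S100a10), against 23.4% and 43.7% of all genes. S100a8 was thus still higher in mTEChi (log2 2.33, adjusted p = 0.00014) and S100a9 lower (log2 -1.65, adjusted p = 0.0006), where WT cells had both higher in mTEChi. Against KO cTEC the same 5 were higher in mTEChi and S100a10 was the 1 lower, with 26.6% and 41.2% of all genes. S100a9 was not called (log2 0.71, adjusted p = 0.0883), and was at 0.91 with an adjusted p of 0.0488 without KO cTEC replicate 1. KO mTEClo against KO cTEC had 1 higher (S100a9) and 5 lower (S100a4, S100a6, S100a7a, S100a10, S100g), against 19.3% and 17.5%. Of these S100a4 (log2 -1.17) overlapped between the groups, as did S100g, and its call is lost without KO cTEC replicate 1 (-0.63, adjusted p = 0.202) or 2 or any KO mTEClo library (adjusted p of 0.0592 to 0.122).

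Scaling moves the balance of calls over all genes in these comparisons. For WT mTEChi against mTEClo it was 8097 higher and 6055 lower as deposited and 5761 higher and 7651 lower under quantile normalization, for WT mTEChi against cTEC 9063 higher and 6178 lower and 6344 higher and 8319 lower, and for WT mTEClo against cTEC 4779 higher and 3533 lower and 3923 higher and 4714 lower. For KO mTEChi it was 4548 higher and 8500 lower and 5706 higher and 6555 lower against mTEClo, and 5174 higher and 8007 lower and 6107 higher and 6404 lower against cTEC. For KO mTEClo against cTEC it was 3756 higher and 3397 lower, and 2963 higher and 4249 lower when centred on housekeeping genes. The calls of the 9 genes named above for these comparisons kept their direction under both scalings, and S100a6 was added as higher in WT mTEChi than in mTEClo under quantile normalization (log2 0.30, adjusted p = 0.0347). S100a9 was added as higher in KO mTEChi than in KO cTEC under quantile normalization (log2 1.02, adjusted p = 0.00756) and when centred on housekeeping genes (log2 0.85, adjusted p = 0.0465).

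Whether the genotype difference itself differed between populations was tested as an interaction in the same model. Between mTEChi and mTEClo, 1 gene had a higher KO minus WT difference in mTEChi (S100a6) and 5 a lower one (S100a7a, S100a8, S100a9, S100a10, S100b), against 6.01% and 40.9% of all genes. Between mTEChi and cTEC, 1 was higher (S100a6) and 6 lower (the same 5 and S100g), against 5.13% and 44.8%. Quantile normalization changed the balance over all genes from 1169 higher and 7950 lower to 4559 higher and 3550 lower and from 997 higher and 8714 lower to 5343 higher and 3951 lower. S100a9 had an interaction of -5.45 against mTEClo (adjusted p = 3.49e-07). S100g rose in both mTEChi and cTEC, by less in mTEChi on the log2 scale (-3.27, adjusted p = 2.59e-05). No difference between populations was called for S100a4 (log2 0.17, 95% interval -1.12 to 1.45, against mTEClo, and 0.40, -0.89 to 1.69, against cTEC). For S100a14 it was 0.16 (-0.45 to 0.78) against mTEClo and -0.71 (-1.32 to -0.09, adjusted p = 0.0533) against cTEC. The latter was called without KO cTEC replicate 2 or 3, KO mTEChi replicate 2 or WT mTEChi replicate 3 (-0.79 to -0.94, adjusted p of 0.00752 to 0.0469).

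The genes with the most similar profiles over the 18 libraries were found for each of the 9, by the root mean square difference between log2 profiles centred on their own means (given in brackets). S100a10 had the closest ones: Asph (0.146), Glo1 (0.152), Acpp (0.16). Those of S100a14 were Fam89a (0.17), Snx8 (0.216), Ankrd33b (0.234), and those of S100a6 Fam102b (0.202), Mt2 (0.225), Riok2 (0.233). For S100a4 they were Nfam1 (0.422), Tbc1d4 (0.437), Clec2i (0.444), and for S100g Calcb (0.462), Dnmt3l (0.477), Tac4 (0.493). Calcb, which encodes a calcitonin gene-related peptide, was at 242 RPKM in WT against 517 in KO mTEChi, above S100g in both. S100b was closest to Flnc (0.392), Apoa5 (0.418), Padi3 (0.423), and S100a7a to Gsg1 (0.445), Cacna1i (0.452), Fads3 (0.486). The profiles nearest to S100a8 were Krt71 (0.576), Rhox12 (0.633), Ptgds (0.653), and to S100a9 Lrrn4 (0.553), Tpsg1 (0.574), Acoxl (0.575), so the calprotectin subunits shared none of their 3 nearest genes. Ptgds, a prostaglandin synthase, was at 55.1 RPKM in WT against 1.81 in KO mTEChi, and Krt71, a keratin of hair follicles, at 18.8 and 1.09.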

How the data were processed

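RNA of 18 libraries, 3 in each of 6 groups, was analysed from 1 table per library. Per the file headers the authors deposited an RPKM value for each gene, and beside it a signal, the number of aligned bases on the gene. RPKM is normalized by the authors to gene length and to a library-wide total. Per the submitters' processing notes, build mm10 and CASAVA 1.8.2 were used, and which annotation was used is not stated there. Between 9.72% and 18.8% of base values up to 2000 were multiples of 100, so whole reads were not recovered and count tests were not run. Depth (4.54 to 18.1 Gb on genes) is high for the abundant genes, and the spread between libraries limits precision. Reads shared with near-identical copies cannot be separated.

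The test took genes that reached 0.1 RPKM in 3 or more libraries. Values of log2(RPKM + 0.1) were fitted with limma 3.58.1 in R 4.3.3 (6 group means, eBayes with a trend), and adjusted p-values (Benjamini-Hochberg) are over all 19451 genes tested. There were 11 comparisons. Fold changes are on this log2 scale, which understates changes of low genes. The fit was tested on simulated data. Each SE comes from this fit of 3 libraries per group. The S100-fused, receptor, annexin and calcium lists name up to 3 called genes with the smallest adjusted p and the most abundant uncalled gene, and each marker list its 3 most abundant genes. Similar genes needed at least 1 RPKM in a group. The 9 genes and the lists were chosen with earlier results of these data known. Replicate numbers did not pair the libraries by any label. Alternatives were the added constant, the filter, scaling (for the gene lists, chosen after seeing the data), the model, and leaving out each library. GENCODE and RefSeq annotation of the same build gave strands, exons and promoters.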

Additional observations from a re-analysis of the deposited data

Results flagged for a closer look

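The KO minus WT difference in mTEChi differed from that in another population for 7 of the 9 S100 genes, by limma's test of the interaction over all tested genes. Against mTEClo the log2 differences were S100a6 1.504 (adjusted p = 8.16e-06), S100a7a -2.502 (adjusted p = 7.21e-05), S100a8 -2.706 (adjusted p = 0.00159), S100a9 -5.446 (adjusted p = 3.49e-07), S100a10 -1.128 (adjusted p = 0.000549), S100b -4.181 (adjusted p = 1.26e-05). Against cTEC they were S100a6 1.266 (adjusted p = 3.97e-05), S100a7a -2.391 (adjusted p = 9.88e-05), S100a8 -4.338 (adjusted p = 2.17e-05), S100a9 -4.511 (adjusted p = 2.26e-06), S100a10 -1.296 (adjusted p = 0.000149), S100b -3.776 (adjusted p = 3.04e-05), S100g -3.271 (adjusted p = 2.59e-05). A positive value is a KO minus WT difference that is more positive in mTEChi. S100a6 was higher in KO in mTEChi and not called in the other populations, and S100a7a, S100a8, S100a9, S100a10 and S100b had a more negative difference in mTEChi. S100g rose more in cTEC on the log2 scale only, from a mean of 1.57 to 46.7 RPKM, against 126 to 326 in mTEChi. Its cTEC difference was not called with only the 6 cTEC libraries in the model (adjusted p = 0.0677). KO cTEC also carried more Aire than WT cTEC (means of 52.8 and 4.47 RPKM). The size for S100b depends on the constant added to RPKM: it was -6.075 against mTEClo and -5.519 against cTEC with 0.01 added, -1.551 and -1.478 with 1 added, and called each time. These comparisons share the mTEChi libraries. Groups of 3 libraries are too small for the check of single libraries that stand apart.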

How the results depend on the processing

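Over the 9 genes and 11 comparisons, 1504 single-gene values under an alternative kept their direction and side of the threshold, 21 passed it newly, 49 lost it and 19 changed sign. All counts in mTEChi and of the interactions stayed within 1.5 times of those reported. For KO minus WT in mTEClo the genes lower were 2 with a filter of 1 RPKM, 3 when centred on housekeeping genes and 2 with only the groups compared in the model. Leaving out single libraries gave 1 to 2 higher and 0 to 1 lower there. In cTEC a model of only the groups compared called 0 higher and 0 lower, and leaving out libraries 0 to 1 lower. WT mTEClo against cTEC had 2 higher with only the groups compared, and 2 to 4 lower when single libraries were left out. KO mTEClo against cTEC had 1 lower with only the groups compared. These models use 6 libraries instead of 18. Replicate numbers share no label of a litter or day, and same-numbered libraries correlated over 0.1 in every pair in 1 of 15 pairs of groups (r of -0.30 to 0.21). With a replicate block the counts for KO minus WT in mTEChi were 4 higher and 5 lower, no count moved by over 1.5 times, and not every library correlated best with its own number. The block made S100a14 called in mTEClo (KO minus WT 0.58, adjusted p = 0.0468) and in its interaction against cTEC (-0.71, adjusted p = 0.0344). It ended the calls of S100a6 for WT mTEClo against cTEC (adjusted p = 0.0520) and of S100a4 for KO mTEClo against cTEC (adjusted p = 0.0590). The counts of the other gene lists under the scalings were added after seeing the data and stand beside each list.

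Sign changes, none of them called, were these, and the cause was not tested. For KO minus WT, S100a6 in mTEClo was -0.037 when centred on housekeeping genes, and S100a8 in cTEC -0.081 under quantile normalization. Leaving out single libraries, S100a8 in cTEC ran from -0.49 (without WT replicate 3) to 0.49, S100a10 from -0.32 to 0.051 (without KO replicate 1), and S100b from -0.30 (without KO replicate 1) to 0.49. For WT mTEClo against cTEC, S100b was 0.34 with 0.01 added, and -0.46 to 0.31 (without cTEC replicate 2) over left-out libraries. For KO mTEChi against cTEC, S100b ran from -0.55 to 0.20 (without cTEC replicate 1). For KO mTEClo against cTEC, S100a8 ran from -0.79 to 0.094 and S100a14 from -0.31 to 0.25, both highest without cTEC replicate 1, and S100b from -0.034 (without cTEC replicate 2) to 0.71. The interaction of S100a14 against mTEClo was -0.13 under quantile normalization, and that of S100a4 against cTEC ran from -0.13 (without KO cTEC replicate 3) to 0.93 (without KO cTEC replicate 1). Values under 0.2 RPKM, as most of S100b, limit what these libraries can show.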
